A study of Homo sapiens with 14 samples.

Results

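Interferon-induced genes and the nucleic acid sensors that lie upstream of them were read on 14 arrays of Kasumi-1, a human cell line from acute myeloid leukaemia whose fusion gene AML1-ETO joins RUNX1 to RUNX1T1. The set held 45 named genes: cytosolic and endosomal RNA sensors, interferon signalling factors, the OAS, IFIT, IFITM, MX and GBP families, and other genes that interferon induces. A gene was measured where a probe set carried its symbol and no other, which gave 43 genes on 65 probe sets of the 11963 genes in the series. STAT2 and IFI30 were not analysed here. Of the 43, 19 passed the filter on low values that all genes went through and were tested, among 7178 genes in all, and 24 fell below it.

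RNA was taken 96 h after transfection. By nucleofection, in which an electric pulse opens the cells, 3 arrays had received siRNA against AML1-ETO and 2 had received siRNA against firefly luciferase, which has no target in human cells. With the lipid reagent siLentFect the numbers were 3 and 3. On 1 array cells were nucleofected with no siRNA, and 2 arrays held untransfected cells. All groups were 1 cell line grown in RPMI medium with fetal calf serum. The siRNA concentration was 1.5 µM by nucleofection and 240 nM by lipid, so dose and method cannot be told apart, and there was no array of lipid reagent without siRNA. Not analysed here were luciferase nucleofection replicate 3 and replicate 2 of the untransfected cells. Separate cultures are not stated for the replicates, so the p-values cover array-to-array spread that may be technical.

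Cells detect foreign double-stranded RNA with RIGI and IFIH1 in the cytosol, with the toll-like receptor TLR3 in endosomes, and with the kinase EIF2AK2, which stops translation when it binds such RNA. The endosomal receptors TLR7 and TLR8 detect single-stranded RNA. The sensors switch on type I interferon, and interferon binding to its receptor sends a complex that holds STAT2 and IRF9 into the nucleus, where it binds a short promoter element, the interferon-stimulated response element. The induced genes encode proteins that degrade viral RNA, block virus entry or budding, or raise antigen presentation. A small interfering RNA is itself a short double-stranded RNA, and transfected duplexes have been reported to set off parts of this response in some cells.

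The luciferase siRNA is shown because it was the control duplex of every knockdown comparison below. Per the labels its strands, written 5′ to 3′ without the overhangs, were as follows, with the capital marking the base at which the antisense strand departed from the exact complement of the sense strand.
luciferase sense: cguacgcggaauacuucga
luciferase antisense: ucgaaguauucGgcguacg
The departure was C12G, counted from 1 at the 5′ end of the antisense strand, and left 1 of 19 bases unpaired as the strands are written. The AML1-ETO duplex had 19 bases with 0 unpaired. Neither duplex held UGUGU or GUCCUUCAA, motifs reported to stimulate TLR7 or TLR8 (0 matches each).

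Promoters of 34 of the 45 genes were in the RefSeq table used here (GRCh38.p14, from 250 bases before to 50 after the gene start). The response element core GAAANNGAAA, searched on both strands, was in 20 of these 34 promoters (58.8%) and in 3.57% of all 35116 promoters. The core of the gamma-activated site, TTCNNNGAA, was in 8 of 34 (23.5%) and in 7.66% of all. The response element core was in 7 of 12 promoters of tested genes and in 13 of 20 promoters of measured genes below the filter. A match is a description of the letters and not a binding site. Below are the promoters of IFITM1, IFITM3 and BST2, whose signals differed between groups, and of ISG15, the ubiquitin-like modifier that is a standard readout of the response and that stayed dim on these arrays. Matches to the response element core, or runs of overlapping matches, are in capitals.
IFITM1: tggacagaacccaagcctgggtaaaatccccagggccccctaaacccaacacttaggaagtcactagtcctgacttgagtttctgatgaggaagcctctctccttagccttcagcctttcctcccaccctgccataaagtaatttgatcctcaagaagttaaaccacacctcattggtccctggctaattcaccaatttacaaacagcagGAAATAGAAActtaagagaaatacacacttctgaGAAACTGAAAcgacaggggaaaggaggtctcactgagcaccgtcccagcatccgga
IFITM3: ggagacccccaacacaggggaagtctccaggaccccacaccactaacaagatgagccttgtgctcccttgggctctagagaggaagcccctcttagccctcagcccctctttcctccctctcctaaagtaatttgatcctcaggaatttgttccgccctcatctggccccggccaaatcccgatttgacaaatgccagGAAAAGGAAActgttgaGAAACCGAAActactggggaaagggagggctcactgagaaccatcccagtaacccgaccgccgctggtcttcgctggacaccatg
BST2: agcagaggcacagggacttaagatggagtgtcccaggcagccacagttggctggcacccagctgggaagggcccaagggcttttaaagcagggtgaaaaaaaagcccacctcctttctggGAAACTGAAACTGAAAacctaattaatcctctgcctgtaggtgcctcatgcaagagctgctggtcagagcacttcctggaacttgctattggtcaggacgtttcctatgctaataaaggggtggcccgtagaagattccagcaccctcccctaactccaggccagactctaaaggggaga
ISG15: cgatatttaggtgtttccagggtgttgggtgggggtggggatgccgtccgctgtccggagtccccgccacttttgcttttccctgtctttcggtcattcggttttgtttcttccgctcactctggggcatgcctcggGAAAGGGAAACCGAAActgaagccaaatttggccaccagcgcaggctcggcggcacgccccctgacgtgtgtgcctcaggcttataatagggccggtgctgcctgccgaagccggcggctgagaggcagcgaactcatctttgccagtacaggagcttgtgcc
The IFITM1 window was chr11:313790-314089 on the plus strand, with matches that started 40 and 6 bases before the gene start. The IFITM3 window was chr11:320811-321110 on the minus strand, with matches starting 52 and 35 bases before the start. The BST2 window was chr19:17405581-17405880 on the minus strand, with 2 overlapping matches from 130 bases before the start, and the ISG15 window was chr1:1013247-1013546 on the plus strand, with 2 overlapping matches from 113 bases before it. IFITM2 was not in the table.

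The deposited table gave a linear intensity for each probe set, raised here to a floor of 20 before taking log2. Between 63.1% and 69.3% of all genes lay above the floor on an array. RUNX1T1, the fusion partner, read 318, 328 and 251 on the nucleofected AML1-ETO arrays and 644 and 763 on the nucleofected luciferase arrays, and 400, 426 and 502 against 540, 560 and 567 by lipid. Of 7 measured markers of the line, 6 were above the floor on every array. Of 9 monocyte markers, 3 were above the floor on every array (LYZ at 260 to 711, ITGAM at 33.1 to 72.2 and CSF1R at 23.3 to 70.6) and CD14 on none. Of 11 lymphoid markers, 2 were above it on every array and CD3G and CD79B on none. Of 5 plasmacytoid dendritic cell markers, 0 were above it on every array and IL3RA and LILRA4 on none, and IRF4 reached 60.1. The 18S ribosomal RNA control signal was 165 to 1410 on the 5 nucleofection arrays with siRNA and 1960 on the nucleofection array without it, against 8.11 to 58 by lipid and 46.3 and 67.9 in untransfected cells. The log2 ratio of the 3′ to the 5′ GAPDH control was −0.18 to 0.25 by nucleofection with siRNA and −0.38 to −0.17 by lipid.

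Most interferon-induced genes had little signal in any group. Of the 43 measured, 13 were at or below the floor on all 14 arrays, 16 were above it on some arrays and 14 were above it on every array, and 37 read below 100 everywhere. The share that passed the expression filter was 44.2%, against 60% of all genes by the filter's construction. Intensities of different probe sets are not amounts of RNA on one scale, so the levels below are compared between arrays and not between genes. An intensity at the floor shows that a gene was not measurable here, not that its RNA was absent. A fitted difference that includes arrays under the floor uses the floor's value for them, so it understates the gap and its standard error leaves out their spread.

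Of the RNA sensors, the cytosolic receptors RIGI and IFIH1 read 1.91 to 14.7 and 1.23 to 16, and the endosomal receptors TLR7 and TLR8 read at most 5.27 and 2.98. TLR3, the endosomal receptor of double-stranded RNA, crossed the floor on 2 of 14 arrays, at 24.8 in AML1-ETO lipid replicate 2 and 26 in luciferase lipid replicate 1. EIF2AK2 was the 1 sensor measured on every array, at 59.5 to 110 with a median of 82.9. None of the sensors except EIF2AK2 could therefore be compared between groups.

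Among signalling factors, IRF1, a transcription factor of the interferon response, read 54.4 to 89.6 and was above the floor on every array. IRF7, which amplifies interferon production, read 19.9 to 36.2. USP18, a brake on the interferon receptor, read at most 6.91. IRF9, the DNA-binding subunit of the complex that interferon forms, read 15.2, 14.5 and 22 on the nucleofected AML1-ETO arrays and 60.4 and 14.7 on the nucleofected luciferase arrays. By lipid it read 38.1, 39.3 and 50.9 with AML1-ETO siRNA and 36.6, 43.7 and 39.6 with luciferase siRNA. The nucleofection array without siRNA read 23.6 and untransfected cells 52.0 and 36.5. IRF9 was thus lower on 5 of the 6 nucleofection arrays than on any other array, and 1 luciferase replicate was the highest of all.

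Of the OAS family, enzymes that make the activator of the nuclease RNase L, OAS1 was above the floor on 3 of 14 arrays and reached 38.8. OAS3 read 33.7 to 65.5 and the enzymatically inactive relative OASL 32.3 to 81.7. In the IFIT family, proteins that bind viral RNA or one another, IFIT1 and IFIT5 stayed at or below 12.5 and 11.1, and IFIT3 read 34.0 to 64.6. OAS2 and IFIT2 are given with the knockdown results.

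In the membrane group, IFITM1, IFITM2 and IFITM3, small proteins that hinder virus entry, were above the floor on every array and read 83.4 to 325, 306 to 1140 and 387 to 1060. BST2, the tether that holds budding virus at the cell surface, read 8.05 to 56.3, and RSAD2, an antiviral enzyme that makes a chain-terminating nucleotide, at most 19.1. The probe sets of IFITM2 and IFITM3 carry the platform's suffix for probes shared with related transcripts, so signal may pass between these near-identical paralogues.

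The GTPase MX1 was above the floor on 9 of 14 arrays, at most at 36.8, and MX2, which acts at the nuclear pore, read 28.5 to 57.0. GBP1 read at most 9.25 and GBP2 at most 28.8. Of the other small induced genes, ISG15 read 5.8 to 31.5 and was above the floor on 8 arrays, and the exonuclease ISG20 read at most 16.3. IFI44L and the apoptosis factor XAF1 read at most 10.9 and 19.0, and IFI27 and IFI44 at most 22.3 and 27.7. IFI35 was the 1 gene of this group above the floor on every array, at 27.4 to 53.9.

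Among nuclear and nucleic acid acting proteins, ADAR, which edits adenosine in double-stranded RNA, varied least, at 365 to 440. The DNA sensor IFI16 read 173 to 323, and PML, the scaffold of nuclear bodies, 53.3 to 90.7. SP100, another nuclear body protein, read up to 45.9, SAMHD1, which degrades deoxynucleotides, up to 22.3, and the ubiquitin ligase TRIM22 up to 19.9. TAP1, a subunit of the peptide transporter, reached 26.9 and the secreted glycoprotein LGALS3BP read 25.6 to 58.9. The heat map of all 43 genes gives each gene's level by array.

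**Figure D1:**
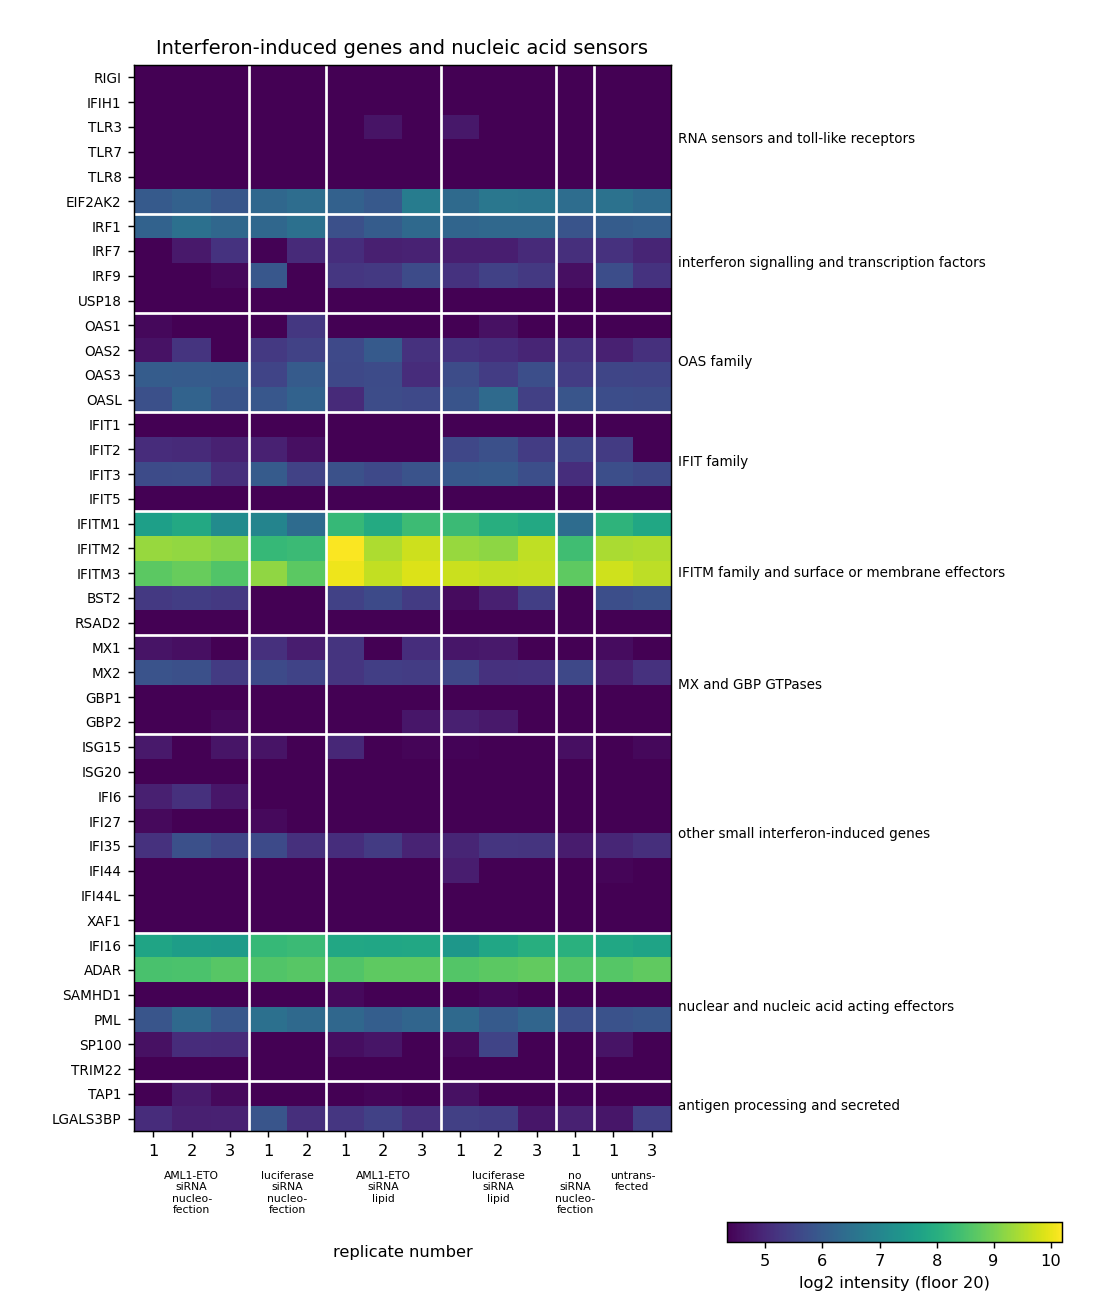
Log2 intensity of the 43 measured genes (rows, by role) on each of the 14 arrays (columns, by group, with replicate numbers), with values below 20 raised to 20. Rows for 13 genes, RIGI and IFIT1 among them, sit at the floor on all 14 arrays, and 14 genes, the IFITM genes, IFI16 and ADAR among them, are above it on every array.

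The first comparison asked whether cells that had received any siRNA carried more interferon-induced signal than cells that had not. The siRNA side averaged nucleofection and lipid equally, while the other side was 2 untransfected arrays and 1 nucleofected without siRNA. Delivery method was thus not balanced between the sides, and differences by method can enter this comparison. Of the 19 tested, 0 were called at an adjusted p below 0.05 and 1 had an unadjusted p below 0.05, beside 2 called of 7178 genes (0.0279%). The median log2 difference, siRNA arrays minus arrays without siRNA, was 0.08 over the members and 0.01 over all genes tested, and the members ranged from −0.28 to 0.40. The upper end of the 95% confidence interval was highest for LGALS3BP, at 0.68 on the log2 scale. These intervals are of single genes, not adjusted for their number, and hold for the average over both methods. Intervals against the nucleofection array without siRNA alone were wider, so larger rises within nucleofection are not excluded. For the 24 genes below the filter, ISG15, MX1, IFIT1 and OAS1 among them, the arrays give their ranges above and no test.

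PML had the smallest p. It read 58.1, 79.9 and 60.7 with nucleofected AML1-ETO siRNA, 90.7 and 81.1 with nucleofected luciferase siRNA, 77.8, 68.0 and 75.8 with lipid AML1-ETO siRNA and 80.7, 63.5 and 75.5 with lipid luciferase siRNA, against 53.3 on the nucleofection array without siRNA and 56.1 and 59.9 in untransfected cells. All but 1 of the 11 siRNA arrays lay above the 3 arrays without siRNA. It gave a log2 difference of 0.40 (SE 0.13, limma adjusted p = 0.455), and it did not pass. PML had several probe sets, and those not chosen differed by −0.08 to 0.26 in this comparison.

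The next members by p were IFI35, IRF1, MX2, BST2, IFIT3, OAS3 and IRF7, with adjusted p-values of 0.762 to 0.922. IFI35 had a lowest, median and highest intensity of 30.1, 37.1 and 53.9 on the siRNA arrays, against 27.4 on the nucleofection array without siRNA and 30.9 and 34.8 in untransfected cells. IRF1 had 54.4, 78.0 and 89.6 on the siRNA arrays, against 58.0, 65.5 and 68.5. The ranges overlapped in both. MX2, at 35.8, 42.7 and 57.0 on the siRNA arrays, read 48.4 on the nucleofection array without siRNA and 28.5 and 36.0 in untransfected cells, so the 2 kinds of array without siRNA lay apart. IFIT3 had 34.8, 53.3 and 64.6 on the siRNA arrays, against 34.0, 53.2 and 48.5, and OAS3 had 33.7, 51.2 and 65.5, against 41.0, 47.1 and 46.4. The log2 differences of these 5 genes were 0.22 to 0.33. IRF7 and BST2 differed by −0.26 and −0.28.

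The comparison with cells lacking siRNA was also made within each method. By lipid, 0 of the 19 members were called against untransfected cells (0.00% of all genes called). An unadjusted p below 0.05 was found for 352 of all 7178 genes and for 1 member. This was BST2, at 44.0, 49.6 and 40.9 with AML1-ETO siRNA and 22.7, 28.7 and 42.8 with luciferase siRNA, against 53.3 and 56.3 in untransfected cells. Its log2 difference was −0.57 (limma, adjusted p = 0.849). By nucleofection with siRNA against the 1 nucleofection array without it, 0 of 19 were called (0.111% of all genes) and 5 had an unadjusted p below 0.05. IFITM1 at 0.72, IFI35 at 0.67, IRF1 at 0.49 and PML at 0.49 on the log2 scale were above 0 and IFIT2 at −0.68 was below it (adjusted p = 0.553 to 0.604), and 13 of the 19 members had a difference above 0. Over all genes tested, 3726 of 7178 had a difference above 0. The median was 0.18 over the members and 0.01 over all genes tested. The nucleofection array without siRNA stood alone in its group, and its spread was taken from the other groups, so this comparison cannot decide whether the members rose.

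**Figure D2:**
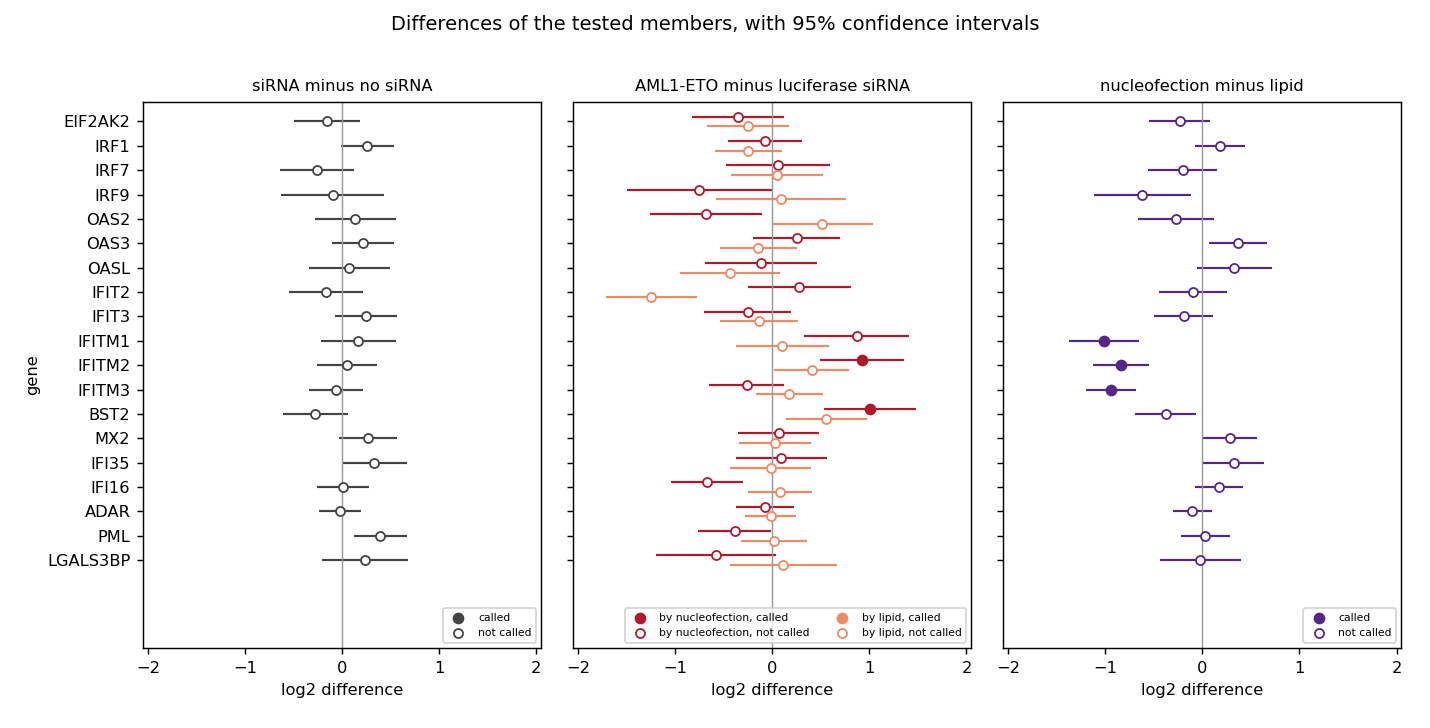
Log2 differences (x axis) of the 19 tested members (y axis) with 95% confidence intervals, for siRNA minus no siRNA, AML1-ETO minus luciferase siRNA within each method, and nucleofection minus lipid. Filled points passed the adjusted p of 0.05. There are 0 filled points in the first panel, 2 in the second, IFITM2 and BST2 by nucleofection, and 3 in the third, the IFITM genes.

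Delivery method separated the IFITM genes. On the 5 nucleofection arrays with siRNA, IFITM3 read 419, 453 and 387 with AML1-ETO siRNA and 596 and 423 with luciferase siRNA, against 1060, 814 and 946 and 849, 808 and 826 by lipid. No nucleofection array reached a lipid array. It gave a log2 difference, nucleofection minus lipid, of −0.94 (SE 0.12, limma adjusted p = 0.000285), a change of −47.9%.

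IFITM1 followed, at 198, 232 and 142 with AML1-ETO siRNA and 126 and 83.4 with luciferase siRNA by nucleofection, against 305, 243 and 325 and 321, 258 and 233 by lipid. The highest nucleofection array lay just under the lowest lipid array. It gave a log2 difference of −1.01 (SE 0.17, limma adjusted p = 0.0014).

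IFITM2 read 623, 603 and 557 with AML1-ETO siRNA and 306 and 320 with luciferase siRNA by nucleofection, against 1140, 710 and 856 and 631, 589 and 800 by lipid. The methods overlapped at the AML1-ETO nucleofection and luciferase lipid arrays. It gave a log2 difference of −0.835 (SE 0.13, limma adjusted p = 0.00117). These 3 of 19 members fell (15.8%), below the share of all genes, of which 22.0% were called lower and 25.6% either way. The median over the members was −0.10, against −0.17 over all genes tested.

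Most genes were lower by nucleofection on the deposited scale, and centring the arrays on their medians moved the median of all genes from −0.17 to 0.005 on the log2 scale. On that scale the members called were 3 lower and 5 higher. IFITM1, IFITM2 and IFITM3 fell by 0.84, 0.66 and 0.77, and IRF1, OAS3, MX2, IFI35 and IFI16 rose by 0.35, 0.54, 0.46, 0.50 and 0.35. With quantile normalization 6 were called, the same IFITM genes lower by 0.59 to 0.77 and IRF1, OAS3 and IFI16 higher. Of all genes called, 14.3% were higher on the deposited scale, 44.2% with quantile normalization and 46.1% with median centring. The share of all genes called on either of these scales is not given here, so the counts of members called cannot be set against it. With the arrays centred on their medians the IFITM genes were lower, and IRF1, OAS3, MX2, IFI35 and IFI16 higher, by nucleofection. Single arrays decided 3 further members on the deposited scale. Without luciferase nucleofection replicate 1, IRF9, under the floor on 3 of the 5 nucleofection arrays, was called at −1.02 (adjusted p = 0.00157, against −0.62 and 0.0661 with all arrays). OAS3, at 0.37 with all arrays (adjusted p = 0.0662), was called without that array (adjusted p = 0.0459) or AML1-ETO lipid replicate 2 (adjusted p = 0.0469). BST2, at −0.38 (adjusted p = 0.0729), was called without luciferase lipid replicate 1 (adjusted p = 0.0213).

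The nucleofection array without siRNA read 83.8, 335 and 431 for IFITM1, IFITM2 and IFITM3 and 8.05 for BST2. Those values lay within or beside the range of the nucleofection arrays with siRNA, and none of the 4 genes was called between the 2 kinds of array. Untransfected cells read 284 and 225, 701 and 729, and 871 and 780 for the IFITM genes, all inside the range of the lipid arrays except IFITM1 and IFITM3 in untransfected replicate 3, which lay just under it. The low IFITM signal was thus seen on nucleofection arrays whether or not siRNA was present.

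Against untransfected cells, nucleofection with siRNA gave 4 called members of 19 (21.1%), all lower (5.84% of all genes were called lower and 7.45% either way). The log2 difference was −0.85 for IFITM3 (limma, adjusted p = 0.00965), −0.95 for BST2 (adjusted p = 0.0149), −0.73 for IFITM2 (adjusted p = 0.0327) and −0.87 for IFITM1 (adjusted p = 0.0388). MX2 was at 0.61 and missed the threshold (adjusted p = 0.0557). It was called with each array centred on its median, at 0.72 (adjusted p = 0.0358), and without AML1-ETO nucleofection replicate 3, at 0.68 (adjusted p = 0.0355). Without untransfected replicate 1 or without replicate 3, 0 members were called, with adjusted p of 0.143 and 0.0541 for IFITM3. IFITM1 also lost its call without any 1 of luciferase lipid replicate 2, luciferase nucleofection replicate 2, AML1-ETO lipid replicate 1 and AML1-ETO nucleofection replicates 1 and 3 (adjusted p = 0.051 to 0.0923). IFITM2 lost it without luciferase nucleofection replicate 1 or 2 or AML1-ETO nucleofection replicate 3 (adjusted p = 0.0697, 0.0599 and 0.056). Without luciferase nucleofection replicate 1, IRF9 was called, at −1.10 (adjusted p = 0.0107).

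The ribosomal RNA signal moved with these differences, being higher on each of the 6 nucleofection arrays than on any of the other 8. With that signal as a covariate, chosen after seeing the data, 0 members were called between methods, at log2 differences of −1.02, −0.65 and −1.06 for IFITM1, IFITM2 and IFITM3 (adjusted p = 0.296, 0.377 and 0.142), and 0 against untransfected cells. With the GAPDH ratio as a covariate 0 were called between methods, at −1.24, −1.03 and −1.32 (adjusted p = 0.242, 0.226 and 0.0647), and 1, IFITM3, against untransfected cells. Between methods the IFITM differences were no smaller than without that covariate, and their standard errors were larger, at 0.25 to 0.39. Sums over markers of other cells also separated the methods. Lymphoid markers summed to 435 to 543 by nucleofection and 714 to 905 by lipid, 6 erythroid and megakaryocyte markers, of which 3 were above the floor on every array and ALAS2 on none, to 385 to 448 and 522 to 658. The sum of 10 markers of tissue outside blood, of which 2 were above the floor on every array and KRT19 and CDH1 on none, was 266 to 363 by nucleofection and 433 to 529 by lipid. Plasmacytoid and monocyte sums overlapped, at 61.1 to 96 and 501 to 886 by nucleofection and 45.6 to 97.9 and 585 to 724 by lipid. The part of these in the IFITM differences was not tested. Method and ribosomal RNA signal cannot be told apart on these arrays, nor can method and siRNA dose among the arrays with siRNA. The 1 nucleofection array without siRNA also read low for the IFITM genes, as given above. In RNA from whole cultures, fewer cells that express a gene and less RNA per cell cannot be told apart either.

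**Figure D3:**
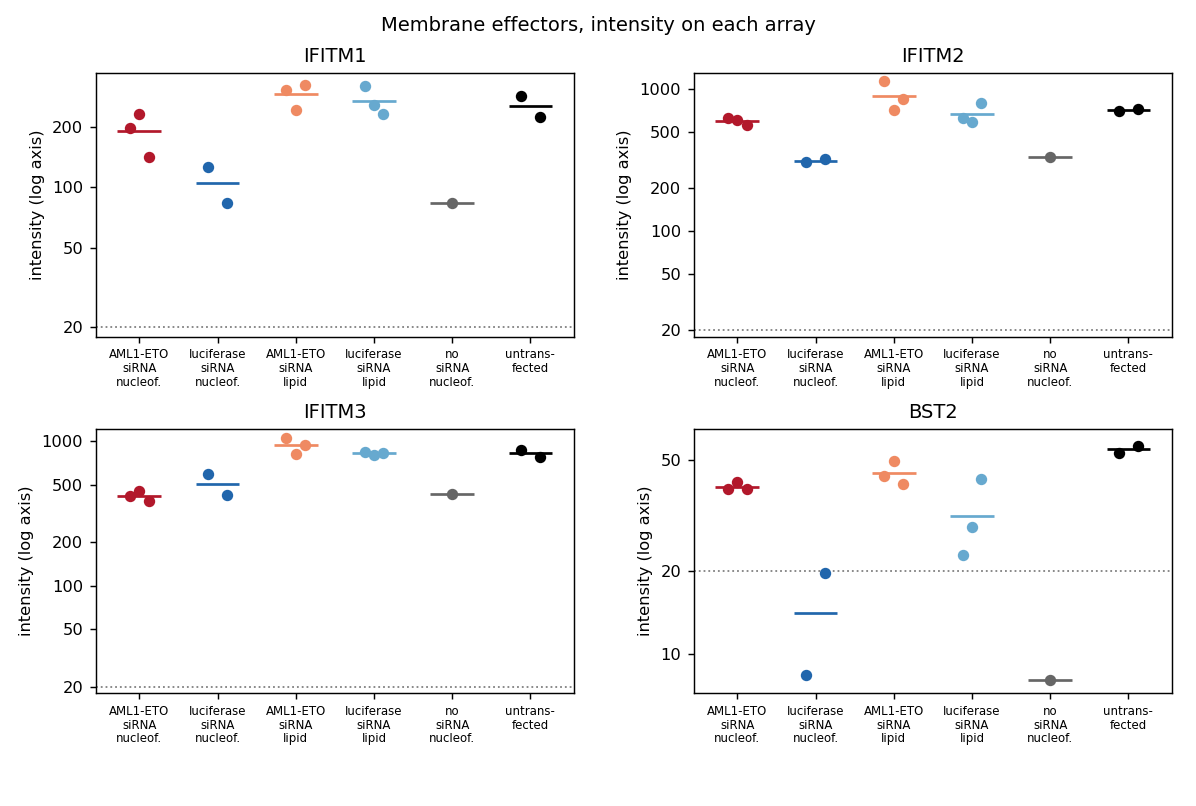
Intensity (log axis) of IFITM1, IFITM2, IFITM3 and BST2 on each array, by group, with horizontal lines at group means and a dotted line at the floor of 20. IFITM3 lies between 387 and 596 on the 6 nucleofection arrays and between 780 and 1060 on the other 8, and BST2 is at or below the floor on both nucleofected luciferase arrays and the nucleofection array without siRNA.

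The knockdown comparison asked which members differed between the AML1-ETO and the luciferase siRNA. Averaged over the methods, 2 of 19 members rose (10.5%), BST2 and IFITM2, and 0 fell (1.14% of all genes were called higher and 1.66% either way). BST2 read 39.5, 41.8 and 39.3 with AML1-ETO siRNA against 8.43 and 19.7 with luciferase siRNA by nucleofection, and 44.0, 49.6 and 40.9 against 22.7, 28.7 and 42.8 by lipid. The nucleofection groups did not overlap, and by lipid 1 luciferase replicate lay among the AML1-ETO arrays. It gave a log2 difference of 0.78 (SE 0.15, limma adjusted p = 0.0195), a change of 72.0%. Both nucleofected luciferase arrays were set to the floor, so this change understates the gap and the standard error leaves out their spread.

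Both luciferase arrays by nucleofection were under the floor for BST2, so its nucleofection difference is a bound of at least 2.01-fold higher with AML1-ETO siRNA, against the floor of 20 (adjusted p = 0.0319). Untransfected cells, at 53.3 and 56.3, lay above every AML1-ETO array, and their mean was at least 2.74-fold that of the nucleofected luciferase arrays.

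IFITM2, given by array above, averaged 594 ± 33.8 (SD, n = 3) with AML1-ETO siRNA and 313 ± 9.34 (SD, n = 2) with luciferase siRNA by nucleofection, and 903 ± 220 against 673 ± 112 (SD, n = 3 each) by lipid. The nucleofection groups did not overlap and the lipid groups did. Its log2 difference was 0.67 (SE 0.13) as the mean of both methods (limma, adjusted p = 0.029), 0.92 by nucleofection (adjusted p = 0.0319) and 0.41 by lipid (adjusted p = 0.999). IFITM3, its close paralogue, gave −0.04 as the mean of both methods and IFITM1 0.49 (adjusted p = 0.894 and 0.195).

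The other 17 members did not pass. After BST2 and IFITM2 the smallest p-values were those of IFIT2, IFITM1, IFI16, EIF2AK2, PML and OASL, at log2 differences of −0.48, 0.49, −0.30, −0.30, −0.19 and −0.28 (adjusted p = 0.195 to 0.502). EIF2AK2 read 63.2, 70.8 and 59.5 with AML1-ETO siRNA against 78.1 and 86.4 with luciferase siRNA by nucleofection, and 71.1, 62 and 110 against 82.1, 101 and 97.5 by lipid. OASL read 53.9, 73.0 and 57.9 against 60.5 and 72.5 by nucleofection, and 32.3, 51.7 and 49.4 against 57.2, 81.7 and 43.6 by lipid. Replicates of OASL varied as much as its groups differed. The median over the 19 members was −0.08, and over all genes tested it was also −0.08.

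Within nucleofection, 2 of 19 members rose and 0 fell (1.63% of all genes higher, 2.62% either way), again BST2 and IFITM2. IFITM1, at 198, 232 and 142 against 126 and 83.4, was 0.87 higher on the log2 scale and did not pass (adjusted p = 0.0874). IFI16 read 215, 193 and 187 with AML1-ETO siRNA against 308 and 323 with luciferase siRNA. Its groups did not overlap, and its difference of −0.67 missed the threshold (adjusted p = 0.0573), with −0.60 and −0.68 at its other probe sets. With quantile normalization IFITM1 and IFI16 were also called, at 0.96 and −0.62 (adjusted p = 0.043 and 0.0425), and IFI16 was called without luciferase lipid replicate 1 (adjusted p = 0.0383).

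These calls rested on few arrays. By nucleofection neither BST2 nor IFITM2 was called without any 1 of the 5 arrays compared, with adjusted p of 0.0667 to 0.157. As the mean of both methods BST2 lost its call without luciferase nucleofection replicate 1 or 2 or luciferase lipid replicate 2 (adjusted p = 0.0711, 0.0785 and 0.0541). IFITM2 lost its call without any 1 of luciferase lipid replicates 1 and 2, luciferase nucleofection replicates 1 and 2, AML1-ETO lipid replicate 1 and AML1-ETO nucleofection replicates 1 to 3 (adjusted p = 0.0503 to 0.102). Without luciferase nucleofection replicate 2, IRF9 was the 1 member called, at −1.55 by nucleofection and −0.73 as the mean (adjusted p = 0.0138 and 0.0481), and without replicate 1 it was at 0.05 and 0.07. With the GAPDH ratio as a covariate 0 members were called, with BST2 at 0.84 and IFITM2 at 0.76 as the mean (adjusted p = 0.142 for both).

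Neutrophil markers moved with the same comparison. Their summed intensity, over 11 genes of which 6 were above the floor on every array and LTF and CAMP on none, was 14700 to 14800 on the nucleofected AML1-ETO arrays and 4970 to 5250 on the nucleofected luciferase arrays. Over both methods it was 11800 to 14800 against 4970 to 11900. The granule protease CTSG carried much of this, at 5900, 5550 and 5700 against 419 and 423 by nucleofection and 3150, 2860 and 2980 against 1220, 1270 and 1110 by lipid. By lipid the groups overlapped for ELANE (4190 to 5630 against 3910 to 5390), PRTN3 (2400 to 2950 against 2550 to 3400) and CSF3R (80.3 to 114 against 100 to 130). They also overlapped there for AZU1 (1360 to 1690 against 1080 to 1460). CSF3R overlapped by nucleofection too, at 47.9, 48.3 and 50.9 against 48.4 and 16.3. The summed signal of 9 monocyte markers was 620 to 886 against 501 to 569 by nucleofection, with 3 of 9 above the floor on every array and CD14 on none. These 3 did not move together. LYZ, which carried most of the sum, read 441, 628 and 711 against 260 and 350. ITGAM went the other way, at 38, 36.8 and 40.9 against 64.4 and 55.4, and CSF1R overlapped, at 25, 70.6 and 48.4 against 29 and 28.6. The part of the neutrophil and monocyte markers in the result was not tested.

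Of the members below the filter, IFI6, a small protein of the mitochondrion and endoplasmic reticulum, was above the floor on 3 of 14 arrays, all of them nucleofected AML1-ETO arrays. It read 28.8, 35.0 and 25.8 there, against 19.6 and 8.71 on the nucleofected luciferase arrays, 1.95 to 11.3 by lipid, 6.03 on the nucleofection array without siRNA and 5.08 and 8.3 in untransfected cells. It was at least 1.48-fold higher with AML1-ETO than with luciferase siRNA by nucleofection, against the floor. It is named for this pattern, after its values were seen, and no test is given. SP100 was likewise above the floor on all 3 nucleofected AML1-ETO arrays, at 23.9, 33.7 and 33.1, and on neither nucleofected luciferase array, at 17 and 11.9, which is at least 1.49-fold. Its luciferase lipid arrays, at 22.3, 45.9 and 18, spanned that range. Another SP100 probe set did not separate the groups, at 13.6, 23.4 and 26.5 with AML1-ETO siRNA against 17.8 and 33.9 with luciferase siRNA, and the 3 others were under the floor on every array.

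By lipid, 0 of 19 members were called between the siRNAs (0.125% of all genes). An unadjusted p below 0.05 was found for 325 of all 7178 genes and for 3 members. IFIT2 came closest. It read 20.1, 18 and 9.77 with AML1-ETO siRNA and 47.9, 53.8 and 41.3 with luciferase siRNA, and the groups did not overlap. With 2 of the AML1-ETO arrays under the floor and set to 20, the fitted log2 difference was −1.24 (SE 0.22, limma adjusted p = 0.0569), which understates the measured gap. Untransfected cells read 40.4 and 13.3, as far apart as the siRNA groups, and without either of these arrays the adjusted p was 0.00537. With array weights it was 0.0353, and with quantile normalization 0.165.

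By nucleofection IFIT2 showed no such gap, at 33.7, 32.7 and 29.0 with AML1-ETO siRNA and 29.0 and 23.5 with luciferase siRNA. OAS2 read 24.5, 37.1 and 15.6 with AML1-ETO siRNA against 39.6 and 44.9 with luciferase siRNA by nucleofection, and 49.0, 63.6 and 35.7 against 36.4, 33.9 and 30.7 by lipid. Its log2 difference was thus −0.68 with nucleofection (adjusted p = 0.197) and 0.52 with lipid (adjusted p = 0.999). IFI16, at 229, 223 and 230 against 173, 224 and 258 by lipid, differed by 0.08 there.

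Whether the knockdown effect differed between methods was tested as an interaction, and 0 of 19 members were called (0.0557% of all genes). An unadjusted p below 0.05 was found for 772 of all 7178 genes and for 4 members. The difference of the effects, nucleofection minus lipid, was 1.52 for IFIT2, −1.20 for OAS2, −0.75 for IFI16 and 0.76 for IFITM1 on the log2 scale (adjusted p = 0.142, 0.317, 0.319 and 0.436). IFIT2 was called without either untransfected array (adjusted p = 0.0312). For no member was a difference between methods in the knockdown effect shown with all arrays.

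**Figure D4:**
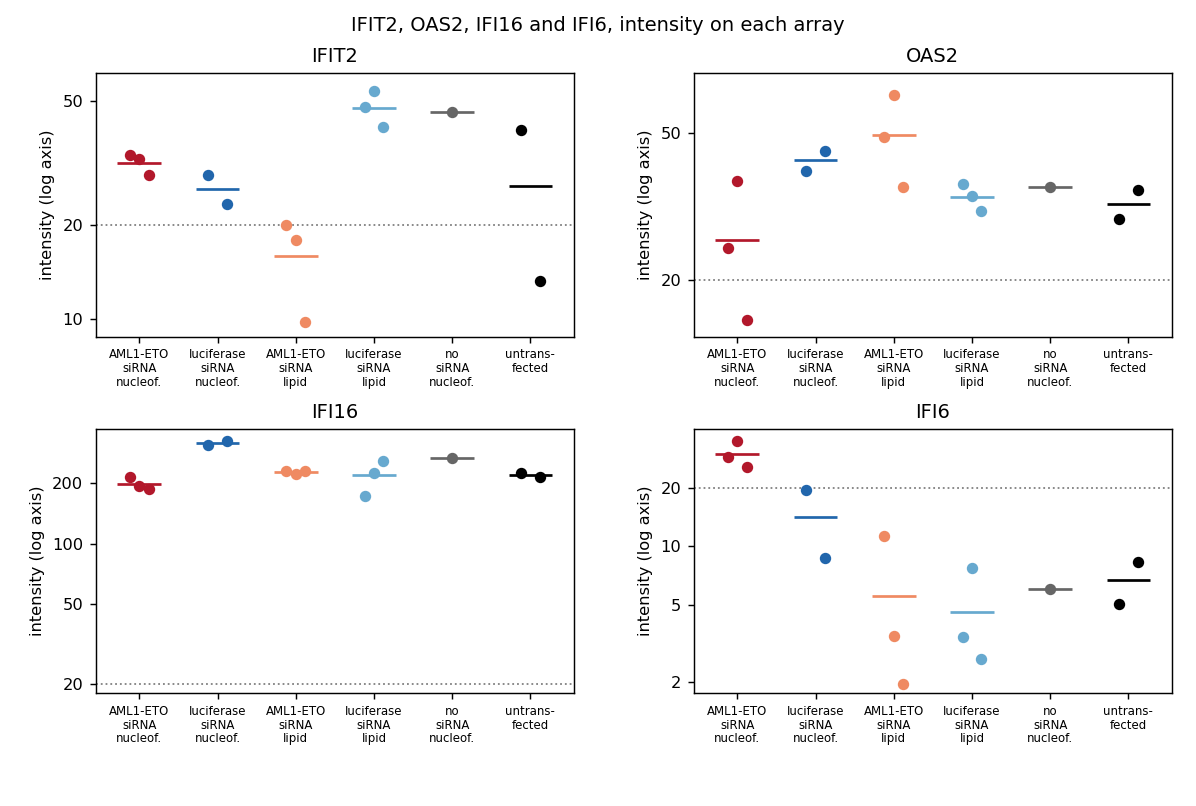
Intensity (log axis) of IFIT2, OAS2, IFI16 and IFI6 on each array, by group, with horizontal lines at group means and a dotted line at the floor of 20. IFIT2 is at or near the floor on the 3 lipid AML1-ETO arrays, IFI16 is highest on the 2 nucleofected luciferase arrays, and IFI6 is above the floor on the 3 nucleofected AML1-ETO arrays alone.

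The wider pathway was read from 78 further genes of interferon receptors, kinases, adaptors, regulatory factors and antigen presentation, of which 68 were measured and 51 tested. Between siRNA and no siRNA limma called 0 of 51, with 5 at an unadjusted p below 0.05. The smallest p-values belonged to HLA-B, a class I presenting molecule, at 0.47 (adjusted p = 0.259), UNC93B1, which carries toll-like receptors to endosomes, at −0.84 (adjusted p = 0.31), GCH1, an enzyme of tetrahydrobiopterin synthesis, at −0.36 and the surface protein LY6E at −0.26 on the log2 scale. In the knockdown as the mean of both methods 0 were called, beside 1.66% of all genes. An unadjusted p below 0.05 was found for 9 of the 51 and for 1031 of all 7178 genes. The smallest p-values there were those of IRF8, a myeloid interferon regulatory factor, at 0.68 (adjusted p = 0.0533), HLA-B at 0.43, the receptor kinase JAK1 at 0.40 and HLA-C at 0.34.

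By nucleofection alone 2 of these 51 (3.92%) rose with AML1-ETO siRNA, HLA-B and IRF8, against 1.63% of all genes called higher and 2.62% either way. HLA-B read 762, 815 and 647 with AML1-ETO siRNA and 421 and 448 with luciferase siRNA, a log2 difference of 0.765 (limma, adjusted p = 0.0319). IRF8 read 60.9, 43.9 and 48.4 against 33.4 and 18.5, a difference of 0.97 (adjusted p = 0.0497). The luciferase array at 18.5 was under the floor. Both pairs of groups stood apart. Whether these 2 calls hold without single arrays or with a covariate is not given here. Between nucleofection and lipid 21 of 51 were called (41.2%, against 25.6% of all genes), 5 higher and 16 lower, with LY6E at −0.62, JAK1 at −0.63 and PLSCR1, a scramblase, at −0.68. GCH1 was also lower, with 4 of 5 nucleofection arrays under the floor, at 15.6 to 24.8 by nucleofection against 30.9 to 54.4 by lipid. The 5 higher were IRF8, HLA-B, HLA-C, the peptide transporter subunit TAP2 and UBE2L6, which conjugates ISG15. By lipid HLA-B read 372 to 490, HLA-C 378 to 552 and IRF8 20.9 to 37.1. The nucleofected luciferase arrays lay within that range for HLA-B and for HLA-C (473 and 551), and did not clear it for IRF8. For TAP2 (43.2 and 54.1) and UBE2L6 (98 and 125) they lay above every lipid array. The HLA-B and HLA-C probe sets carry the suffix for probes shared with related transcripts. Against untransfected cells 9 were called by nucleofection with siRNA (17.6%, against 7.45% of all genes), 3 higher and 6 lower.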

How the data were processed

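RNA from 14 samples was measured on 14 single-colour arrays. The authors made 1 intensity per probe set with MAS5, per the submitters' processing notes; its version and settings are not given in the sources used here. The deposited intensity values are linear, with a mean of 138.5 on every array, so a change in the total signal of an array is hidden in them. Of 22283 probe sets, 19065 carried 1 gene symbol in the platform annotation, and 1043 carried several and were not used for names.

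Values were analysed as log2 of the deposited intensity after a floor of 20, which understates differences of dim genes. A gene was represented by the probe set with its highest mean, and 60% of genes, those with means of at least 26.6, were tested. The functions lmFit and eBayes of limma 3.58.1 (R 4.3.3) were fitted to 6 group means on all 14 arrays, leaving 8 residual degrees of freedom (prior 4.65). P-values were Benjamini-Hochberg adjusted over 7178 genes, two-sided, and called below 0.05. The number of arrays limits the precision. The fit was tested on simulated data. Figures used Python 3.11.15 and matplotlib 3.10.9.

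The members and lists were chosen with earlier results of these data known. All members are accounted for by their levels. Those called are named with every array. Up to 8 of smallest p in the siRNA and mean knockdown comparisons are named with the arrays compared or with a range. Of the wider pathway, called genes in the knockdown and up to 4 of smallest p are named. Markers of monocytes, neutrophils, plasmacytoid cells, lymphocytes, erythroid cells, tissue outside blood and the line itself were read as sums. Alternatives changed the scaling, floor, filter, probe sets, variance model, covariates, replicate block and single arrays. Of 22 pairs of arrays with the same replicate number, 0 had a correlation of deviations over 0.1. The deviations were from means of few arrays, so this cannot show whether such arrays were handled together.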

Additional observations from a re-analysis of the deposited data

Results flagged for a closer look

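The 18S ribosomal RNA control probe set, which belongs to no comparison, had a median intensity of 281 on the 5 nucleofection arrays with siRNA, above the 46.3 and 67.9 of untransfected cells. On the 6 lipid arrays its median was 37.1. The IFITM genes were lower on the same nucleofection arrays, and the part of the ribosomal signal in that difference cannot be told apart from the method.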

How the results depend on the processing

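The count of members called stayed at 0 in all 30 alternatives for siRNA against no siRNA, in 28 for lipid against untransfected cells and in 26 for nucleofection with against without siRNA. For nucleofection against untransfected cells, 4 members became 2 with quantile normalization, with a floor of 64, with no filter or with a replicate block, 1 with the GAPDH ratio and 0 with the ribosomal RNA signal as a covariate, and 0 to 4 without single arrays. For the mean knockdown effect, 2 became 1 with a floor of 64, with the upper 40% of genes or with a replicate block, 0 with the GAPDH ratio or without the 2 arrays of highest ribosomal RNA signal, and 0 to 2 without single arrays. For the knockdown by nucleofection, 2 became 4 with quantile normalization, 0 with the GAPDH ratio, with a replicate block, with only the arrays compared or without the 2 arrays of highest ribosomal RNA signal, and 0 to 3 without single arrays. For the knockdown by lipid, 0 became 1 (IFIT2) with array weights or only the arrays compared, and was 0 to 1 without single arrays. For the difference between methods, 0 became 1 (IFIT2) with only the arrays compared and was 0 to 1 without single arrays. For nucleofection against lipid, 3 became 6 with quantile normalization, 8 with median centring, 5 without the 2 arrays of highest ribosomal RNA signal, and 0 with the GAPDH ratio or the ribosomal RNA signal, and was 3 to 5 without single arrays. The share of all genes called under each alternative is not given here, so these counts of members cannot be set against it. The causes were not tested. IFIT3 turned to −0.014 in siRNA against no siRNA without the 2 arrays of highest ribosomal RNA signal, and PML turned to 0.04 in the mean knockdown effect with the mean of all probe sets. Arrays with the same replicate number had correlations of −0.287 to 0.053, which cannot show whether they were handled together. The replicate block changed no call of the members beyond the counts above. Over all genes, calls against untransfected cells by nucleofection were 21.7% higher, against 43.2% with quantile normalization and 41.4% with median centring. For the mean knockdown effect these shares were 68.9%, 80.2% and 79.1%, and by nucleofection 62.2%, 68.8% and 74.8%. Signal near background limits 24 of the 43 genes, for which no test is given here. It also limits some tested members, such as BST2, IFIT2 and IRF9, each above the floor on 11 of 14 arrays.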

Other observations

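The 2 RNA strands of the control siRNA, as written in the labels, do not pair at 1 position (C12G from the 5′ end of the antisense strand). A misprint in the label and a mismatch in the duplex cannot be told apart from the files.

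GCH1 was the member of the wider pathway with the smallest p between methods. It read 16.7, 16.6 and 15.6 with AML1-ETO siRNA and 24.8 and 17.9 with luciferase siRNA by nucleofection, against 47.2, 30.9 and 52.6 and 46.5, 54.4 and 52.7 by lipid, and the methods did not overlap. On 4 of the 5 nucleofection arrays it lay under the floor of 20. The nucleofection array without siRNA read 26.7, and untransfected cells read 47.4 and 51.8.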
